A study of Homo sapiens with 9 samples.

Results

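The genes described here are 10 transcripts of the Notch signalling pathway in MM.1S cells. They are the receptors NOTCH1 and NOTCH2, the ligands DLL4, JAG1 and JAG2, and HES1, HES6, HEY1, HEY2 and NRARP, which are known as Notch targets or as their relatives. Members were chosen by symbol, with earlier results of these data known. All 10 were found among the 60675 Ensembl gene IDs of the deposited table. All passed the filter on low counts that left 15982 genes for testing. MM.1S is an established human multiple myeloma line, so the data come from a single line of malignant plasma cells with no stromal neighbours. The cells were kept for 24 h with epigallocatechin gallate (EGCG, a catechin of green tea) at 0, 40 or 80 µM, with 3 libraries per dose, and the libraries at 0 µM are called the control. The submitters' stated interest is how EGCG promotes apoptosis of myeloma cells.

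Notch is a receptor that is cut when it is engaged by a ligand on a neighbouring cell. An ADAM protease and then the gamma-secretase complex cut it, and the freed intracellular part enters the nucleus, where it joins the DNA-binding protein RBPJ and a Mastermind coactivator (MAML). The complex turns on genes for HES and HEY transcriptional repressors and for NRARP, a feedback inhibitor. In multiple myeloma the pathway is known for contact between tumour cells and the marrow stroma, and JAG2 for being overexpressed in patients' plasma cells. RNA sequencing measures transcript levels and not receptor cleavage.

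EGCG left the receptors' transcripts close to their control level or slightly above it, while HES1, HES6 and DLL4 fell and JAG1 and HEY2 rose at the higher dose. At 80 µM, HES1 was at 0.194 times its control level, DLL4 at 0.215 times and HES6 at 0.216 times. JAG1 was at 1.68 times, HEY2 at 1.60 times and NOTCH2 at 1.29 times the control level. In bulk RNA, fewer cells that carry a transcript and less of it per cell cannot be told apart.

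Library totals lay between 12674490 and 16427343 counts. Values per library are CPM (a library's counts of a gene, rescaled to a common library size), adjusted by TMM, a factor for library composition, and a floor of 3 counts in a library corresponds to 0.183 to 0.234 CPM. All 10 plasma cell and myeloma markers were detected, with a summed level of 8220 to 8560 CPM in the control, 7720 to 8150 CPM at 40 µM and 6500 to 7100 CPM at 80 µM. Single markers differed in direction. IRF4 averaged 1010 CPM in the control and 1670 CPM at 80 µM, and SLAMF7 466 and 636 CPM. The other markers of that list averaged less at 80 µM than in the control. Of 8 endothelial markers, a cell type known for DLL4, CDH5, ROBO4, EMCN and ERG were at 0 counts in all 9 libraries, and the list summed to at most 0.298 CPM in the control, 0.0729 CPM at 40 µM and 0.892 CPM at 80 µM. T cell markers summed to 4.98 to 6.69 CPM in control libraries, to 3.06 to 4.53 CPM with 40 µM and to 2.42 to 3.69 CPM with 80 µM, with CD3D at 0 throughout and CD3E the highest. Monocyte markers summed to at most 1.02 CPM at any dose (FCGR1A at 0), and stromal markers to at most 3.90 CPM in the control, 1.97 CPM at 40 µM and 1.66 CPM at 80 µM (COL1A2, PDGFRA and LUM at 0). The part of the T cell and stromal sums in the results was not tested.

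**Figure D1:**
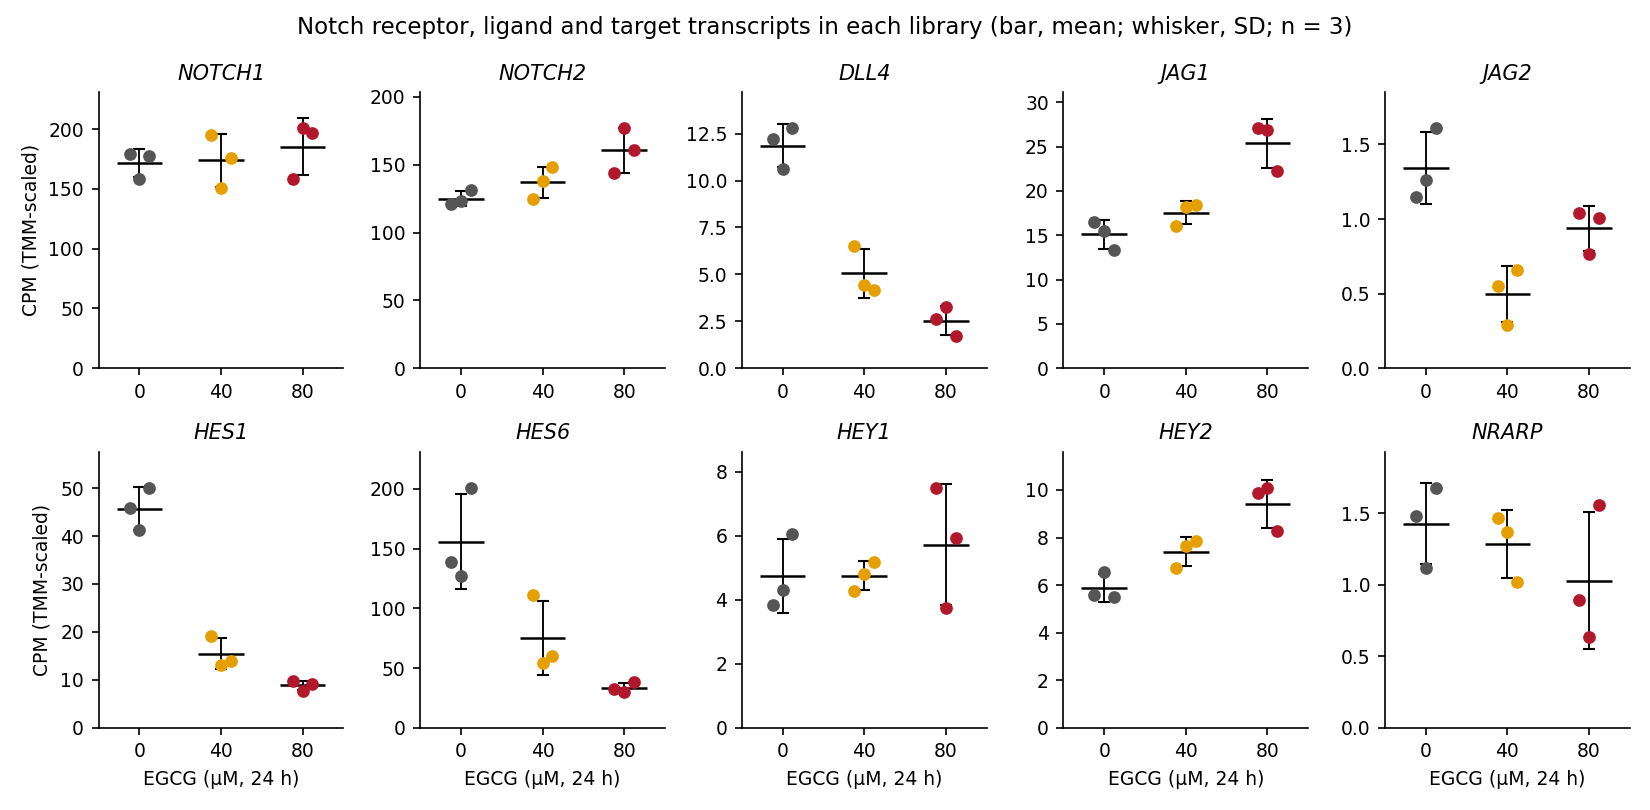
TMM-scaled CPM (y axis, from 0, a separate scale per gene) against EGCG dose (x axis, µM) for each of the 10 Notch genes; points are libraries, horizontal bars means and whiskers SD (n = 3). HES1, HES6 and DLL4 step down from dose to dose with no overlap between neighbouring doses, HEY2 steps up, and NOTCH1 stays between 151 and 201 CPM in all 9 libraries.

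The receptors come first in the pathway. NOTCH1 (ENSG00000148400, chromosome 9, 136494433 to 136545786, GRCh38) is the receptor best known from T cell leukaemia. It had 179, 158 and 178 CPM in the control, 195, 151 and 176 CPM at 40 µM and 158, 201 and 197 CPM at 80 µM, so that the 3 doses overlapped. Its log2 fold change was 0.02 ± 0.13 (SE) at 40 µM and 0.11 ± 0.13 at 80 µM, and neither was called by edgeR's quasi-likelihood test (adjusted p = 0.96 and 0.55). The 95% intervals ran from -0.27 to 0.30 and from -0.18 to 0.39, so changes of these sizes in either direction were not resolved.

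NOTCH2 (ENSG00000134250, chromosome 1, 119911553 to 120069626) is the receptor known for marginal zone B cell development. It had 121, 123 and 131 CPM in the control, 125, 138 and 148 CPM at 40 µM and 144, 177 and 161 CPM at 80 µM. The libraries at 80 µM lay above every control library, whereas those at 40 µM overlapped the control. NOTCH2 rose at 80 µM by 0.37 ± 0.11 on the log2 scale (edgeR adjusted p = 0.024), and at 40 µM its log2 fold change was 0.13 ± 0.11 (adjusted p = 0.53). The call at 80 µM was close to the threshold and ended without control replicate 1 (adjusted p = 0.0746), control replicate 2 (0.0573), 80 µM replicate 2 (0.0929) or 80 µM replicate 3 (0.0552). NOTCH2 also has near-identical partial copies, among which reads may have been split. NOTCH2NLC had 783 to 897 counts per library at 80 µM against 955 to 1093 in the control. Its log2 fold change was -0.30 (edgeR adjusted p = 0.041), opposite in sign to that of NOTCH2. NOTCH2NLA and NOTCH2NLB were not called, with log2 fold changes of 0.09 and -0.23 (adjusted p = 0.59 for each). NOTCH2NLR had 0 counts in every library.

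The 3 ligands differed in direction. DLL4 (ENSG00000128917, chromosome 15, 40929333 to 40939073) encodes a Delta-type ligand best known from blood vessel sprouting. It had 12.2, 10.6 and 12.8 CPM in the control, 6.54, 4.46 and 4.16 CPM at 40 µM and 2.60, 3.25 and 1.71 CPM at 80 µM. Each dose lay wholly below the one before it. DLL4 fell at both doses, with log2 fold changes of -1.22 ± 0.24 at 40 µM (edgeR adjusted p = 0.031) and -2.22 ± 0.26 at 80 µM (adjusted p = 0.00015). The log2 fold change of 80 over 40 µM was -1.0 ± 0.26 (adjusted p = 0.021). The levels at 80 µM rest on 35, 51 and 22 counts.

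The fall of DLL4 at 80 µM against the control was called in all 17 alternatives tried, with log2 fold changes from -2.44 to -2.0. Its call at 40 µM was lost without control replicate 1, 2 or 3 (adjusted p = 0.102, 0.0542 and 0.0986), without 40 µM replicate 2 or 3 (0.114 and 0.117) and without 80 µM replicate 1 (0.0532). The difference between the doses was lost without 40 µM replicate 1 (0.0708), 80 µM replicate 1 (0.0507) or 80 µM replicate 3 (0.0742).

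JAG1 (ENSG00000101384, chromosome 20, 10637684 to 10673999) encodes a Serrate-type ligand that bone marrow stroma also displays. It had 16.5, 15.5 and 13.3 CPM in the control, 16.1, 18.2 and 18.4 CPM at 40 µM and 27.1, 26.9 and 22.2 CPM at 80 µM. Only the 80 µM libraries stood clear of both other doses. JAG1 rose at 80 µM by 0.75 ± 0.14 on the log2 scale against the control (edgeR adjusted p = 0.0021) and by 0.53 ± 0.14 against 40 µM (adjusted p = 0.019). At 40 µM its log2 fold change was 0.22 ± 0.14 (adjusted p = 0.40). The difference between the doses lost its call without 40 µM replicate 1 (adjusted p = 0.0625), 80 µM replicate 1 (0.0645) or 80 µM replicate 2 (0.0712), and with no filter on low counts (0.0582).

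With DLL4 lower and JAG1 higher, the balance of the detected ligands changed over. The ratio of JAG1 to DLL4 in deposited FPKM, a level per gene length, was 0.598, 0.653 and 0.462 in the control libraries, 1.10, 1.81 and 1.97 at 40 µM and 4.63, 3.68 and 5.75 at 80 µM. The ratio was below 1 in each control library and above it in each treated library, and the doses did not overlap.

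JAG2 (ENSG00000184916, chromosome 14, 105140981 to 105168824) was the lowest of the 3 ligands in the control. Control libraries held 17, 17 and 21 of its counts, libraries at 40 µM held 9, 4 and 9, and libraries at 80 µM held 14, 12 and 13. Both doses lay below the control without overlap, with the 40 µM libraries lowest. The log2 fold change was -1.40 ± 0.37 at 40 µM and -0.51 ± 0.34 at 80 µM, and neither was called (edgeR adjusted p = 0.077 and 0.28). The 95% interval at 40 µM, -2.22 to -0.59, is wide at so few counts.

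Among the 5 target genes and relatives, HES1 and HES6 fell at 80 µM, HEY2 rose, and HEY1 and NRARP were not called. HES1 (ENSG00000114315, chromosome 3, 194136145 to 194138732) encodes the repressor through which Notch is best known to act. The promoter of HES1 is shown because it held more than 1 match to TGGGAA, the core letters of an RBPJ site, which stand in capitals and lie on the same strand. That of DLL4, the ligand that fell with HES1, is shown beside it and holds none. Both are RefSeq sequences on the plus strand of GRCh38.p14, from 250 to 11 bases before the transcript start, at chr3:194135898-194136137 and chr15:40929090-40929329, and GENCODE 29 places no exon in either.
HES1: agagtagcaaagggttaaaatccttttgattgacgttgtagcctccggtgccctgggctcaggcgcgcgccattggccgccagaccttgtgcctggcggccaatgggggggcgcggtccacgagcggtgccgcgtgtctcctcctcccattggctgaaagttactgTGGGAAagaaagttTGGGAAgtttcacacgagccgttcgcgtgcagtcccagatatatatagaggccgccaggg
DLL4: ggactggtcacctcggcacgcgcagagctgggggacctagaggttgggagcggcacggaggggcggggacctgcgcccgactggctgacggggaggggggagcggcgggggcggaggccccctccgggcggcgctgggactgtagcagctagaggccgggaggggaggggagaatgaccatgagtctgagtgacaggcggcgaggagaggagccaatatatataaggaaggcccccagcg

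The motif was searched as TGGGAA and its reverse complement TTCCCA. In HES1 it lies 84 to 79 and 70 to 65 bases before the start. Of 27305 promoters in the RefSeq table, 20.5% held at least 1 match in the same window and 2.72% held at least 2. RefSeq promoters were found for 9 of the 10 genes, all but HEY1, and the motif was in 2 of them (22.2%), a share close to that of all promoters. The second was HEY2, with 1 match, for which a stretch of 30 bases at chr6:125749407-125749436 (plus strand, GRCh38.p14) is shown. That window lies in an annotated HEY2 exon, because GENCODE 29 places an earlier start. The windows of HES6 and JAG2 also overlap exons of their own genes, and that of NOTCH1 overlaps exons of MIR4674 and NALT1.
HEY2: tccgcggccgcgTTCCCAcgcctcggctgg
The longer form GTGGGAA, which contains TGGGAA, occurred once in HES1 and once in HEY2, and in 5.26% of all promoters. The N box CACNAG (reverse complement CTNGTG), the class of site through which HES1 is known to repress its own gene, occurred 3 times in HES1, at 165 to 160, 132 to 127 and 58 to 53 bases before the start. At least 2 N boxes were found in 5.87% of promoters. These letter matches describe the sequence and do not show binding.

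HES1 had 45.8, 41.3 and 50.1 CPM in the control, 19.1, 13.2 and 14 CPM at 40 µM and 9.67, 7.77 and 9.20 CPM at 80 µM. The 3 doses were fully separate, and the libraries at 80 µM still held 130, 122 and 118 counts. HES1 fell at both doses, with log2 fold changes of -1.57 ± 0.16 at 40 µM (edgeR adjusted p = 0.00098) and -2.37 ± 0.17 at 80 µM (adjusted p = 8.9e-06). The log2 fold change of 80 over 40 µM was -0.80 ± 0.17 (adjusted p = 0.0080). Counted from the lowest log2 fold change, HES1 was number 51 of 15982 genes at 40 µM and number 31 at 80 µM. HES1 was the only member whose calls in all 3 comparisons held in all 17 alternatives, with log2 fold changes from -1.75 to -1.47 at 40 µM and from -2.44 to -2.26 at 80 µM.

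HES6 (ENSG00000144485, chromosome 2, 238238267 to 238240662) encodes a relative that, in mouse cells, is known to bind HES1 and to relieve its repression. It had 139, 127 and 201 CPM in the control, 111, 54.3 and 59.9 CPM at 40 µM and 32.6, 30.4 and 38.0 CPM at 80 µM. The doses did not overlap, although 40 µM replicate 1 lay nearer to the control than to its own replicates. The authors' model of HES6 was longer than the annotated gene, so these counts, and the fold changes from them, may include reads from outside HES6. HES6 fell at 80 µM, with log2 fold changes of -2.21 ± 0.28 against the control (edgeR adjusted p = 0.00022) and -1.16 ± 0.27 against 40 µM (adjusted p = 0.012). At 40 µM against the control its log2 fold change was -1.05 ± 0.26 and missed the threshold (adjusted p = 0.069).

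Without 40 µM replicate 1 the log2 fold change of HES6 at 40 µM was -1.45 and was called (adjusted p = 0.0109), as it was by DESeq2 (adjusted p = 0.00295). The difference between the doses lost its call without 80 µM replicate 2 (adjusted p = 0.0537). The same library, 40 µM replicate 1, was also the highest of its group for HES1, DLL4, NOTCH1 and NRARP and the lowest for NOTCH2, JAG1, HEY1 and HEY2.

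HEY2 (ENSG00000135547, chromosome 6, 125747664 to 125761269) encodes a HES-related repressor known from the heart and arteries. It had 5.60, 6.55 and 5.51 CPM in the control, 6.72, 7.63 and 7.87 CPM at 40 µM and 9.89, 10.1 and 8.26 CPM at 80 µM. Each dose lay above the one before it. HEY2 rose at 80 µM by 0.68 ± 0.16 on the log2 scale (edgeR adjusted p = 0.0084), a call that held in all 17 alternatives. Its log2 fold change was 0.33 ± 0.16 at 40 µM against the control (adjusted p = 0.28) and 0.35 ± 0.16 at 80 µM against 40 µM (adjusted p = 0.14).

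HEY1 (ENSG00000164683, chromosome 8, 79764010 to 79767863), the sister gene, showed no resolved change. It had 3.85, 4.31 and 6.05 CPM in the control, 4.28, 4.82 and 5.18 CPM at 40 µM and 7.51, 3.76 and 5.92 CPM at 80 µM. The lowest of all 9 libraries was one at 80 µM, and so was the highest. As for HES6, the counts may include reads from outside the annotated gene. The 95% interval of its log2 fold change at 80 µM was -0.32 to 0.87 (estimate 0.27 ± 0.27, edgeR adjusted p = 0.47), which does not exclude a rise of the size seen for HEY2.

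NRARP (ENSG00000198435, chromosome 9, 137300482 to 137302251), the feedback inhibitor that binds the Notch and RBPJ complex, was low, at 10 to 24 counts per library. Control libraries held 22, 15 and 22 counts, libraries at 40 µM held 24, 19 and 14, and libraries at 80 µM held 12, 10 and 20. They may include reads from outside the annotated gene, as for HES6 and HEY1. The doses overlapped, and the log2 fold change was -0.15 ± 0.36 at 40 µM and -0.49 ± 0.37 at 80 µM (edgeR adjusted p = 0.85 and 0.34). The 95% interval at 80 µM ran from -1.30 to 0.33.

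**Figure D2:**
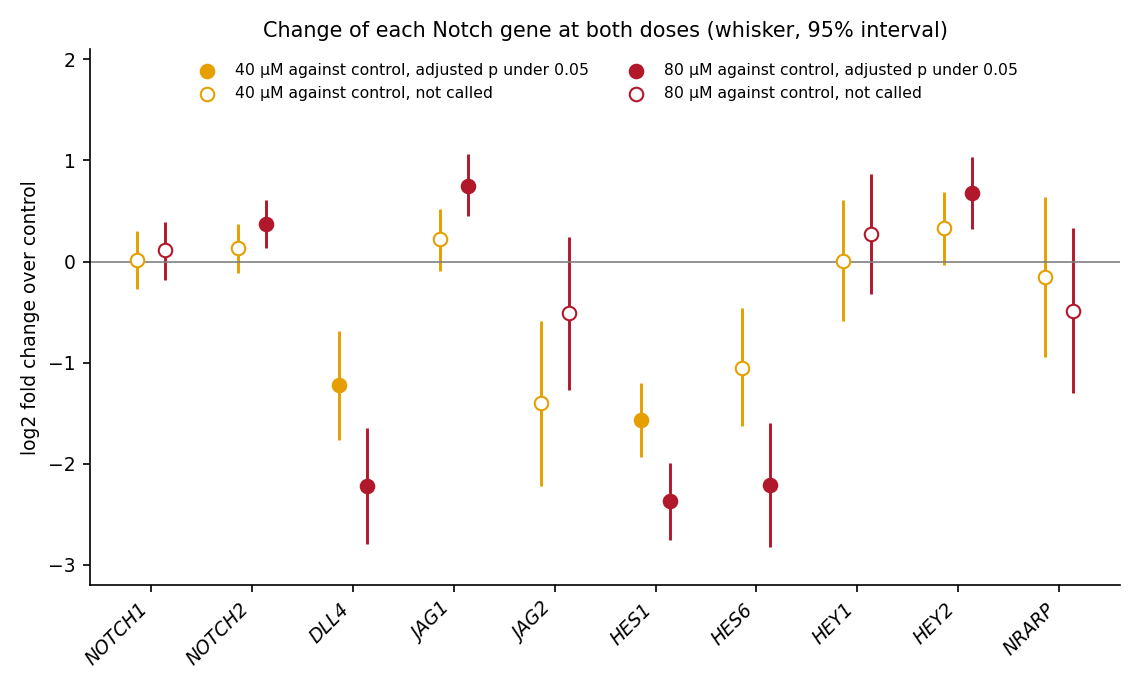
Log2 fold change over control (y axis) for each Notch gene (x axis) at 40 µM and at 80 µM EGCG; points are edgeR estimates, whiskers 95% intervals, and filled points have an adjusted p under 0.05. DLL4, HES1 and HES6 lie below -2 at 80 µM, while JAG1 and HEY2 lie between 0.68 and 0.75.

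At 40 µM, 2 of the 10 genes were lower (HES1 and DLL4) and none was higher by edgeR, where 2.30% of all tested genes were called, 0.813% lower and 1.49% higher. DESeq2 called 3 of the 10, where it called 859 of the 15982 genes given to it. It gave no adjusted p to JAG2 and NRARP in this comparison, so neither could be called. An unadjusted edgeR p under 0.05 was found for 4 of the 10, and the share of all tested genes under it was not counted. At 80 µM, 3 were higher and 3 lower, 6 in all, where 34.9% of all tested genes were called, 17.4% higher and 17.5% lower. Between 80 and 40 µM, 1 was higher and 3 were lower, where 23.0% of all genes were called, 10.9% higher and 12.1% lower. The median log2 fold change of the 10 was -0.07 at 40 µM and -0.19 at 80 µM, against 0.01 and -0.00 over all tested genes.

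Libraries of different doses were also compared for overlap. At 40 µM against the control 4 of the 10 lay wholly lower and 1 wholly higher, where 11.5% and 12.9% of all tested genes did. At 80 µM 4 lay wholly lower and 3 wholly higher, against 25.3% and 24.6% of all tested genes. Between 80 and 40 µM 3 lay wholly lower and 3 wholly higher, against 21.5% and 20.1%. The comparisons with the control share its 3 libraries, so the same control values enter both. By log2 fold change at 80 µM HES1, DLL4 and HES6 were numbers 31, 41 and 43 from the lowest of 15982 genes, whereas JAG1, the member that rose most, was number 13817. The 10 were chosen with earlier results known, so these counts and ranks describe them and do not test the list.

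Levels of different genes were compared per length. In deposited FPKM the order in the control was HES6 (22.0 ± 4.50, SD, n = 3), HES1 (20.3 ± 1.26), NOTCH1 (14 ± 0.917), NOTCH2 (5.16 ± 0.0489), HEY2 (2.19 ± 0.282), DLL4 (2.19 ± 0.166), JAG1 (1.25 ± 0.187), NRARP (0.537 ± 0.0914), HEY1 (0.197 ± 0.0382) and JAG2 (0.122 ± 0.0158). Among neighbours in that order, HES6 and HES1 overlapped, and so did HEY2 and DLL4. At 80 µM the receptors led, with NOTCH1 at 15.3 ± 2.18 FPKM and NOTCH2 at 6.76 ± 0.809 FPKM. HES6 at 4.86 ± 0.548 FPKM and HES1 at 4.0 ± 0.387 FPKM followed, and the range of HES1 overlapped that of HEY2 at 3.54 ± 0.383 FPKM. DLL4 at 0.475 ± 0.149 FPKM had dropped behind JAG1 at 2.12 ± 0.234 FPKM and overlapped NRARP at 0.394 ± 0.182 FPKM.

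The order depends on the gene lengths behind the FPKM. Counts divided by FPKM imply a length of 23.8 kb for HEY1 and 7.01 kb for HES6, more than the 3.85 kb and 2.40 kb that these whole genes span in GENCODE 29, whereas 2.24 kb is implied for HES1, which spans 2.59 kb. For NRARP 2.64 kb is implied, against a span of 1.77 kb. The authors' models of HEY1, HES6 and NRARP are therefore longer than the genes as annotated there, and their counts may include reads from outside them. Per kilobase of GENCODE 29 exon, HES6 had 76.4 ± 19.6 CPM per kb in the control, HES1 had 22.2 ± 2.15, and HEY1 had 1.47 ± 0.359, close to JAG1 at 1.63 ± 0.174. At 80 µM HES6 had 16.5 ± 1.91 CPM per kb of exon beside NOTCH1 at 17.9 ± 2.29. For HES6, HEY1 and NRARP this scale divides counts of a longer model by a shorter length, so their place in the order is not settled by either scale.

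**Figure D3:**
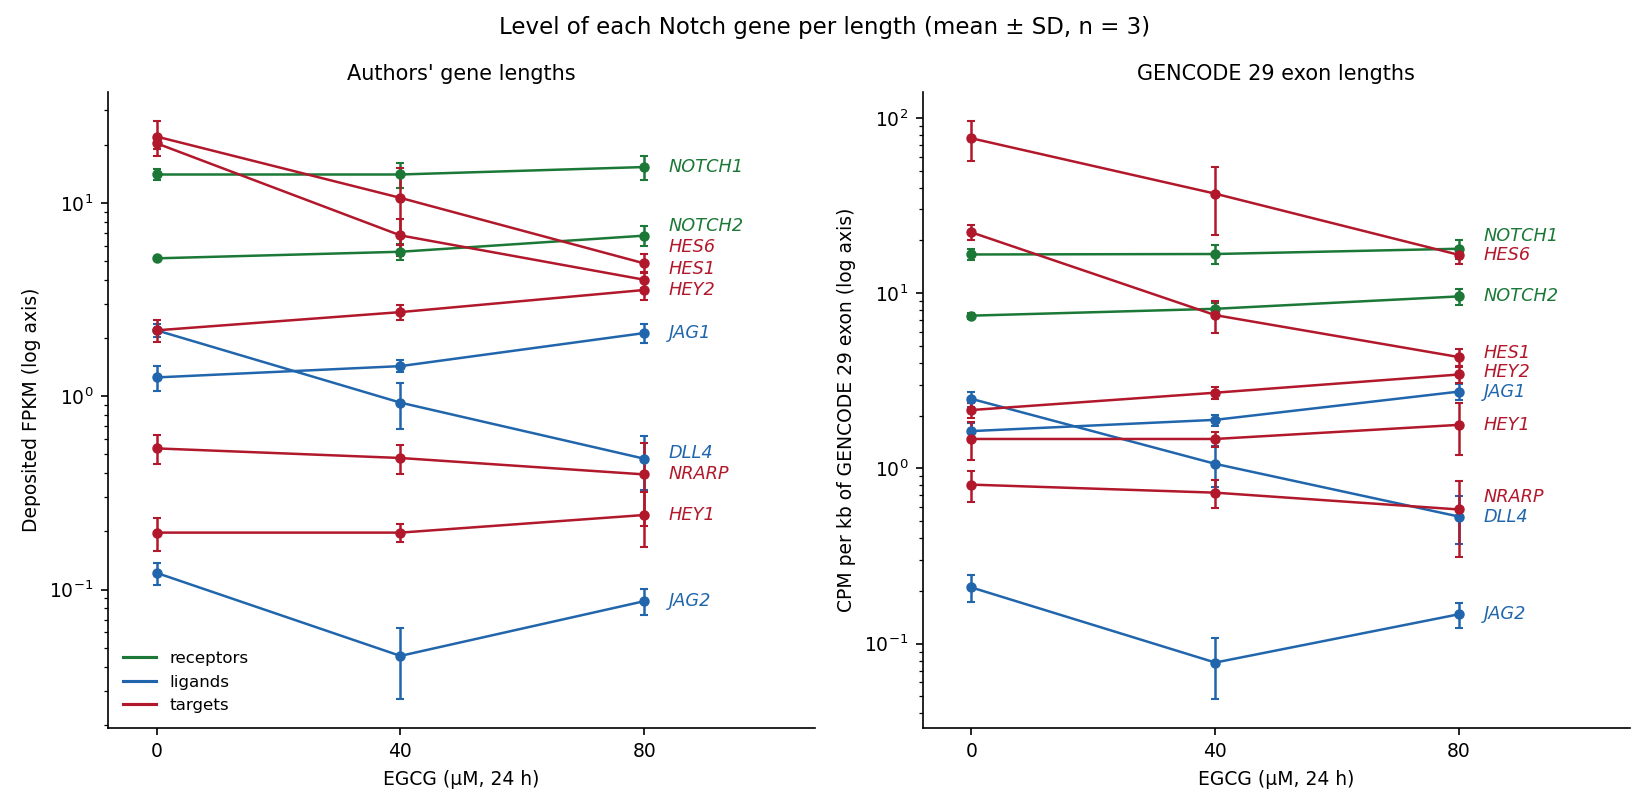
Level per length (y axes, logarithmic) against EGCG dose (x axes, µM) for the 10 Notch genes, as deposited FPKM on the left and as CPM per kb of GENCODE 29 exon on the right; points are means and whiskers SD (n = 3). The lines of HES1, HES6 and DLL4 slope down through those of genes that stay level or rise. Values of every gene but HEY2 are higher on the right than on the left, those of HEY1 and HES6 by the largest factors.

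Likeness to HES1 over the 9 libraries was measured by Pearson's r of log2(CPM + 0.5). It was ranked among 10494 other tested genes that averaged 5 CPM or more and had a symbol other than a clone-type or LINC name. The most alike were METTL26 (r = 0.991), EMID1 (0.987), CRYBB1 (0.987), MYORG (0.985) and SOX2 (0.984). CRYBB1, a lens crystallin gene, averaged 240.0 ± 34.3 CPM without EGCG, 114 ± 13.7 CPM with 40 µM and 62.2 ± 4.56 CPM with 80 µM (SD, n = 3 each). SOX2, a transcription factor of stem cells, averaged 67.4 ± 2.68 CPM without EGCG, 42.1 ± 7.92 CPM with 40 µM and 30.7 ± 1.49 CPM with 80 µM. By the same measure HES6 was number 58 (r = 0.96) and DLL4 number 79 (r = 0.96) in likeness to HES1. The genes most like DLL4 were TMCO6 (r = 0.985), WAKMAR2 (0.983) and SLC17A9 (0.980). The 9 points fall into 3 dose groups and share their libraries, so high values of r come with any transcript that steps with dose.

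The rest of the pathway was read from 6 lists that hold 78 further genes, of which 58 passed the filter. At 40 µM 2 of the 58 were higher and 1 lower by edgeR, beside 1.49% and 0.813% of all tested genes. At 80 µM 18 were higher and 11 lower, beside the 17.4% and 17.5% of all tested genes given above. Their median log2 fold change at 80 µM was 0.12. Among receptors and ligands outside the 10, DLL1 and DLK1 had 0 counts in every library, a level under the floor of 3 counts per library. NOTCH4 had 2 counts in all in the control and DLL3 1, against 0 and 1 at 80 µM. NOTCH3 had 9 counts over the 3 libraries at 80 µM and 0 in every library of the other doses, and DLK2, the only one tested, was not called.

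Of 14 genes of receptor maturation and cleavage, 13 were tested. At 80 µM 2 rose and 4 fell, where 17.4% and 17.5% of all tested genes did (list median -0.05, all tested genes -0.00). ADAM17, a protease that can cut Notch, rose by 1.24 ± 0.15 on the log2 scale, to 73.6 CPM at 80 µM against 31.2 CPM in the control (edgeR adjusted p = 0.00018). ADAM10, the other ADAM protease of the list, averaged 173 CPM in the control and 155 CPM at 80 µM. Its log2 fold change of -0.16 ± 0.17 was not called (adjusted p = 0.50). MFNG, a Fringe glycosyltransferase that modifies Notch and alters its choice of ligand, fell by 1.14 ± 0.14 (adjusted p = 0.00021). POFUT1, which adds the fucose that Fringe extends, fell by 0.36 ± 0.10 (adjusted p = 0.015). None of the 13 was called at 40 µM, where 2.30% of all tested genes were.

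Of 13 genes of endocytosis and turnover, 12 were tested. At 80 µM 7 rose and 1 fell, where 17.4% and 17.5% of all tested genes did (list median 0.49, all tested genes -0.00). None was called at 40 µM, where 2.30% of all tested genes were. FBXW7, the ubiquitin ligase subunit that marks the cut Notch fragment for destruction, rose by 1.03 ± 0.10 on the log2 scale (edgeR adjusted p = 7e-05), to 63.0 CPM at 80 µM against 30.9 CPM in the control. NEURL1B, a ligase of the family that drives ligand endocytosis, rose by 1.67 ± 0.26 (adjusted p = 0.00071), while its relative NEURL1 fell by 1.10 ± 0.15 (adjusted p = 0.00042). AAK1, a kinase of the endocytic machinery, rose by 1.3 ± 0.18 (adjusted p = 0.00044).

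Of 17 genes of the nuclear complex and its corepressors, 16 were tested. At 80 µM 6 rose and 3 fell, where 17.4% and 17.5% of all tested genes did (list median 0.28). None was called at 40 µM, where 2.30% of all tested genes were. RBPJ itself, the DNA-binding partner, was not called at either dose. Its control libraries ranged from 25.3 to 70.8 CPM around a mean of 49.4 CPM. The mean was 75.2 CPM at 40 µM and 72.6 CPM at 80 µM. The log2 fold changes, 0.61 ± 0.29 and 0.56 ± 0.29, were not resolved (edgeR adjusted p = 0.27 and 0.17). RBPJ, DLK2 and ADAM10 are named for their place in the pathway, outside the rule for named genes. CIR1, a corepressor that binds RBPJ, rose by 0.79 ± 0.10 on the log2 scale (edgeR adjusted p = 0.00027). The coactivators EP300 and MAML2 rose by 0.70 ± 0.13 and 0.61 ± 0.12 (adjusted p = 0.0024 and 0.0028). The acetyltransferase KAT2A fell by 1.31 ± 0.15, to 57.5 CPM at 80 µM against 142 CPM in the control (adjusted p = 0.00016).

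Of 17 HES relatives and partners, 9 were tested. At 80 µM 1 rose and 2 fell, where 17.4% and 17.5% of all tested genes did (list median -0.33). HES4, HES5 and TLE2 had 0 counts in every library. ID1 and ID2, helix-loop-helix proteins that block other members of that class, fell at 80 µM, with log2 fold changes of -1.86 ± 0.23 and -1.32 ± 0.15 (edgeR adjusted p = 0.00021 and 0.00012). ID2 was also lower at 40 µM (log2 fold change -0.71, adjusted p = 0.033). BHLHE40, a repressor related to the HES family, rose by 0.89 ± 0.13 at 80 µM (adjusted p = 0.00060) and was higher at 40 µM by 0.65 (adjusted p = 0.032).

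Of 13 other genes known as Notch targets in blood cells, 7 were tested. At 80 µM 2 rose and 1 fell, where 17.4% and 17.5% of all tested genes did (list median -0.06). CR2, the complement receptor CD21 of B cells, fell by 1.34 ± 0.14 on the log2 scale (edgeR adjusted p = 7.2e-05). CDKN1A, the cell cycle inhibitor p21 and also a p53 target, rose by 3.11 ± 0.34 at 80 µM (adjusted p = 0.00011) and by 1.70 at 40 µM (adjusted p = 0.027). BCL2, an inhibitor of apoptosis, rose by 0.89 ± 0.12 at 80 µM (adjusted p = 0.00028). At 40 µM BCL2 lay at 95.2 to 98.7 CPM, below the control at 104 to 140 CPM. That log2 fold change, -0.39 ± 0.12, was not called (adjusted p = 0.11). The other 4 of the 7 tested genes were not called.

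**Figure D4:**
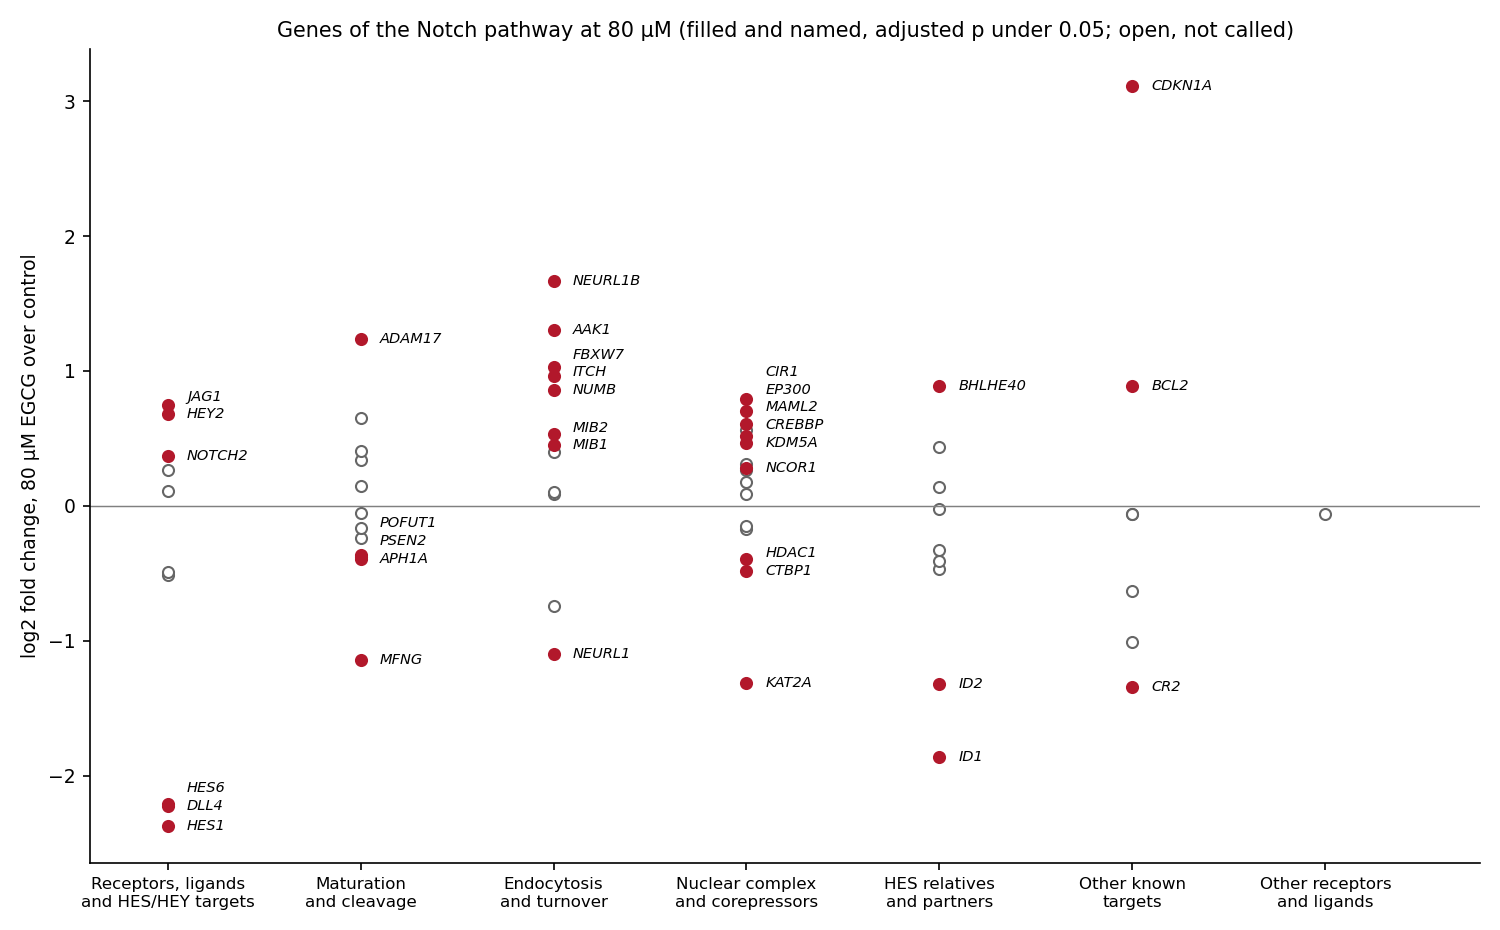
Log2 fold change at 80 µM EGCG over control (y axis) for tested genes of 7 Notch pathway lists (x axis); filled, named points have an edgeR adjusted p under 0.05 and open points were not called. HES1, HES6 and DLL4 lie below every other gene plotted, ID1 comes next at -1.86, and the highest point is CDKN1A at 3.11.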

How the data were processed

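RNA of MM.1S cells was sequenced in 9 libraries, 3 at each of 0, 40 and 80 µM EGCG. The authors deposited 1 table that gives, for each gene in each library, a raw count and an FPKM value (per the file headers). Tools listed in the submitters' processing notes are HISAT2, edgeR, SAMtools 1.3.1 and CASAVA 1.8, and the build is GRCh38. Which program counted the reads, whether by strand, and on which annotation release is not given in the sources read. The labels do not say that replicates were separate cultures, so p-values measure the spread between these libraries, which may be technical. The deposited FPKM values entered no test, and served to compare levels between genes.

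Symbols came from a table of Ensembl IDs and covered 60419 of 60675 IDs. Positions are from GENCODE 29. Counts were filtered with filterByExpr by dose, leaving 15982 genes with 99.71 to 99.83% of a library's counts, and scaled by TMM (factors 0.945 to 1.03). Differences were tested over all genes with edgeR 4.0.16 (R 4.3.3), by its quasi-likelihood test, with dose as the factor, all 9 libraries and 6 residual degrees of freedom. The threshold for a call was 0.05 on the Benjamini-Hochberg adjusted p, which in this fit is over the 15982 genes. In each alternative, such as 1 library left out, the adjusted p is over the genes that its own filter left. The SE of a log2 fold change is its size over the square root of F. The scripts were tested on simulated data. Replicates differed by more than counting noise (a chi-square of 12.74 to 33.48 for each degree of freedom), so none was a copy of another.

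The 10 genes and the lists were chosen with earlier results of these data known. Of each further list, at most 4 called genes with the smallest p at 80 µM were named, and 1 gene that this rule names is not reported here or plotted. Antisense or overlapping genes of the members held at most 15 counts per library.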

Additional observations from a re-analysis of the deposited data

How the results depend on the processing

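Over 17 alternatives (other scalings, filters and tests, only the libraries compared, a replicate block, and each library left out in turn), 489 of 510 values of the 10 genes kept their direction or stayed uncalled on the same side of the threshold, 19 lost a call, 2 gained one and 0 reversed a called direction. At 40 µM, 368 genes were called, against 228 with no filter on low counts, 859 with DESeq2 1.42.0, 183 with a replicate block and 153 when each fit held only its own libraries, and 136 to 469 with 1 library left out. Leaving out control replicate 1 or 3 gave 136 or 151 genes, 40 µM replicate 2 or 3 gave 173 or 144, and 80 µM replicate 2 or 3 gave 229 or 236. Of the 10 Notch genes, 2 were called at 40 µM, 1 with the replicate block, and 1 to 3 with 1 library left out. Between 80 and 40 µM, 3674 genes and 4 of the 10 were called, and 2101 (without 80 µM replicate 2) to 4059 genes and 2 to 4 of the 10 with 1 library left out, with 2288 genes without 80 µM replicate 3 and 2 of the 10 without 40 µM replicate 1 or 80 µM replicate 1 or 2. Libraries with the same replicate number did not deviate together (correlations from -0.145 to 0.0755), so the numbers were not taken as pairs, and the replicate block ended the call of DLL4 at 40 µM (adjusted p = 0.0551). Depth limits JAG2 and NRARP, at 4 to 24 counts per library. DESeq2 gave neither an adjusted p at 40 µM against the control, and both were counted there as uncalled.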
